A study of Rattus norvegicus with 16 samples.

Results

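Granins and the genes that process prohormones were examined in sorted cells of the rat carotid body, a chemosensory organ that lies where the carotid artery branches and senses arterial oxygen. The 10 genes, listed by name, were Chga, Chgb, Scg2, Scg3, Scg5, Vgf, Pcsk1, Pcsk2, Cpe and Ptprn2. Each gene was read from the probe that the platform annotation assigns to it alone, and where a gene had several, from the one with the highest mean over the 16 arrays. Such a probe existed for 8 of the 10, 1 for each gene, out of 18166 genes measured in this way in a table of 30429 probes. Pcsk1, which encodes a convertase of the secretory granule, and Cpe, which encodes the carboxypeptidase that trims the cut peptides, had none and were not analysed here.

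The arrays formed 4 groups of 4, namely hypoxic neuroblasts, hypoxic glomus cells, normoxic neuroblasts and normoxic glomus cells. All came from Wistar rats 9 to 11 weeks old with no genetic change stated. Hypoxic rats had spent 3 days in hypoxic chambers whose oxygen level the labels do not give, and normoxic rats breathed ambient air. Cells of mixed bilateral carotid bodies were dispersed with enzymes, stained for HNK-1, a sugar epitope of neural crest cells, and sorted, so that neuroblasts are the HNK-1 positive and glomus cells the HNK-1 negative fraction, and 500 pg of total RNA was labelled per sample. Whether samples of 1 group were taken from different animals is not stated in the labels. The p-values therefore measure only the spread between these samples, which may be technical.

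Granins are acidic proteins that aggregate with calcium in the trans-Golgi network, take part in the formation of dense-core granules and are themselves cut into peptides. Convertases cut prohormones after pairs of basic residues inside the maturing granule, a carboxypeptidase removes those residues, and the products are released with the amines the granule stores. Glomus cells are the chemoreceptor cells of the carotid body, store dopamine in dense-core granules and release it when oxygen falls, while neuroblasts of the same neural crest lineage can mature into glomus cells.

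All values are the deposited levels, whose scale the table does not state and which were taken as log2, and a level of one probe was not set against that of another. The labels of the populations were checked with marker genes. Th, which encodes the enzyme of the first step of dopamine synthesis, was between 9.40 and 12.76 on all arrays, and the highest value in the whole table was 13.33. Of 10 markers of immature neurons 7 were higher in normoxic neuroblasts than in normoxic glomus cells and none lower, whereas none of the 10 passed between the hypoxic populations, where 3 had an unadjusted p under 0.05. Over all probes 0.996% were higher in normoxic neuroblasts, and 0.283% passed between the hypoxic populations. B3gat1, which encodes an enzyme that builds the HNK-1 epitope, averaged 6.37 ± 0.69 in normoxic neuroblasts and 5.01 ± 0.35 in normoxic glomus cells (SD, n = 4 each), a difference of 1.36 ± 0.29 (SE, adjusted p = 0.0197). In hypoxia B3gat1 averaged 5.51 ± 0.44 in neuroblasts and 5.20 ± 0.20 in glomus cells and differed by 0.31 ± 0.29 (adjusted p = 0.72). Array medians lay between 4.71 and 4.94 in hypoxic samples and between 4.40 and 4.64 in normoxic samples. The values within an array also spread less in hypoxic samples, with SDs of 1.78 to 2.09 against 2.10 to 2.23 in normoxic samples. A narrower spread sets dim probes higher and bright probes lower, and centring on the median leaves it in place. Its part in the differences with hypoxia was not tested. The array least like its own group was hypoxic neuroblast replicate 1, whose correlations with the group averaged 0.914, where those of the remaining 15 arrays averaged at least 0.949. Processing batches and dates are not among the labels, and a batch that followed the oxygen condition cannot be told apart from it.

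The 250 bases before the transcription start are printed for Scg2, Scg3, Vgf and Ptprn2, because the differences that passed a test below include those of these genes. The sequences are those of RefSeq on the GRCr8 build, where 8 of the 10 genes matched by symbol, all but Chga and Pcsk1. Capitals mark the letters of 3 motifs searched on both strands, TGACGTCA (the full cAMP response element), TGACG (its half-site, which each full element holds on both strands) and ACGTG (a form of the core of the hypoxia response element). The other form of that core, GCGTG, was not searched or marked. Scg2 lies on the minus strand of chromosome 9, with its window at chr9:88256867-88257116. Scg3 lies on the minus strand at chr8:85322485-85322734, Vgf on the minus strand at chr12:25277021-25277270 and Ptprn2 on the plus strand at chr6:143582318-143582567. The Scg2 and Vgf windows lie inside the annotated span of their genes. The sequences read 5′ to 3′ along the gene.
Scg2: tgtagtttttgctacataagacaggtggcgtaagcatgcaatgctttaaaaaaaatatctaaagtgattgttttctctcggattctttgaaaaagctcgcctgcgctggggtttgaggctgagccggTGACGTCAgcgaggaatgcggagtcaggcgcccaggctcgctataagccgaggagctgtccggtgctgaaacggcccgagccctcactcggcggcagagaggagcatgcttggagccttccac
Scg3: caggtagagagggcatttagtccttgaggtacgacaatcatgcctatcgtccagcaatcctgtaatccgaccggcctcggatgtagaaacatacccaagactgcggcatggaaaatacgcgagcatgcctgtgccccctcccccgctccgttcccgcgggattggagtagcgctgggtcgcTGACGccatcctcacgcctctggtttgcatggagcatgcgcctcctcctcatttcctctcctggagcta
Vgf: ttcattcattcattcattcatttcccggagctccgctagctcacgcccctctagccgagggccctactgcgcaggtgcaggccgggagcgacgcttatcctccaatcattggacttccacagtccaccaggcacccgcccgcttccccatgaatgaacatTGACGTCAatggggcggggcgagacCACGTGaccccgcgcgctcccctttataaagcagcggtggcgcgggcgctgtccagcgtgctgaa
Ptprn2: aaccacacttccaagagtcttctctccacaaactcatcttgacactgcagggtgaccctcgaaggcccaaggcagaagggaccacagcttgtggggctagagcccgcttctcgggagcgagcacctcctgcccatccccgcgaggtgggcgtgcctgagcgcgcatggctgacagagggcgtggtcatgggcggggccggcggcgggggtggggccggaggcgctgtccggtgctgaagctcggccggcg
The full element began 123 bases before the start in Scg2 and 90 bases before it in Vgf. It was found in 2 of the 8 windows, against 1.59% of 33469 rat windows of this length. The half-site was found in 6 of 8, which besides Scg2 and Vgf were Scg3, Scg5, Pcsk2 and Cpe, against 18.2% of all windows. ACGTG was found in Vgf, on both strands within CACGTG, and in Cpe, against 16.6% of all windows. The Ptprn2 and Chgb windows held none of the 3 motifs. GCGTG was not searched, but it or its reverse complement can be read in the printed Ptprn2, Vgf and Scg3 windows. A match is a description of letters only.

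The normoxic comparison asks how the granin genes of the immature HNK-1 positive cells differ from those of the mature chemoreceptor cells. Chga, Scg2 and Scg3, all genes of granule-forming granins, were lower in neuroblasts, by 2.39-fold, 1.54-fold and 1.73-fold. The other 5 genes did not pass. Thus 3 of 8 passed as lower and none as higher, where 0.828% of all 30429 probes passed as lower and 1.82% in either direction. The groups did not overlap for these 3 genes, and over all probes they did not overlap in 7.39%, with neuroblasts lower in 4.03%. The median difference of the 8 genes was -0.40, against -0.01 over all probes.

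Chga encodes chromogranin A, the founding granin and precursor of peptides such as catestatin (probe 17817994, gene at chr6:127460895-127472238). Its level was 8.12, 7.51, 8.46 and 8.70 in normoxic neuroblasts and 9.02, 9.44, 9.54 and 9.82 in normoxic glomus cells. Every neuroblast array lay below every glomus cell array, and the neuroblast arrays spread more widely. The difference was -1.26 ± 0.24 (95% interval -1.76 to -0.75, adjusted p = 0.00774). The lowest Chga array, normoxic neuroblast replicate 2, also had the highest mean level of 10 fibroblast markers, 8.06, where the other 3 normoxic neuroblast arrays lay between 5.52 and 6.14 and normoxic glomus cells between 5.07 and 6.37. Without that array the Chga difference was -1.03 ± 0.22 (adjusted p = 0.0264).

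Scg2 encodes secretogranin II, the precursor of the peptide secretoneurin (probe 17865827, gene at chr9:88251531-88257208). It was at 11.87, 11.98, 12.25 and 11.89 in normoxic neuroblasts and at 12.46, 12.64, 12.63 and 12.74 in normoxic glomus cells. The groups did not overlap, and all 8 values lay near the top of the scale of the table. The difference was -0.62 ± 0.14 (95% interval -0.92 to -0.32, adjusted p = 0.0286). Scg3 encodes secretogranin III, which binds chromogranin A and cholesterol in the granule membrane (probe 17854039, gene at chr8:85280253-85322484). Its level was 8.43, 8.51, 9.01 and 9.12 in normoxic neuroblasts and 9.40, 9.54, 9.53 and 9.76 in normoxic glomus cells. Neuroblast replicates 1 and 2 were the low ones, and no neuroblast array reached a glomus cell array. The difference was -0.79 ± 0.18 (95% interval -1.16 to -0.42, adjusted p = 0.024).

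The Chga call held in all 25 alternative settings, whereas those of Scg2 and Scg3 were lost when each array was centred on its median (adjusted p = 0.0595 and 0.0678) or when only the arrays compared were fitted (0.0615 and 0.0636). They were also lost when single arrays were left out, Scg2 without normoxic glomus cell replicate 2, 3 or 4 or normoxic neuroblast replicate 1, 2 or 4 (adjusted p 0.0793 to 0.119), and Scg3 without the same arrays other than neuroblast replicate 4 (adjusted p 0.0566 to 0.106). Chga alone then remained past the threshold, or Chga and Scg3 without neuroblast replicate 4.

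Among the genes that did not pass in normoxia, Chgb, which encodes chromogranin B, differed by -0.11 ± 0.18 (adjusted p = 0.992), with an interval of -0.49 to 0.27. Its level was 8.93, 8.55, 8.25 and 8.35 in normoxic neuroblasts and 8.66, 8.79, 8.49 and 8.59 in normoxic glomus cells, so the neuroblast arrays lay on both sides of the glomus cell arrays. Scg5 encodes the granule protein that chaperones the convertase of Pcsk2, and differed by -0.17 ± 0.13 (95% interval -0.46 to 0.11). Pcsk2, the gene of prohormone convertase 2, was at 3.49, 3.13, 4.30 and 3.93 in normoxic neuroblasts and at 3.34, 3.20, 2.76 and 2.78 in normoxic glomus cells. It lay below the array median on 16 of 16 arrays, and its difference of 0.69 ± 0.25 had an adjusted p of 0.273. Ptprn2 differed by -0.69 ± 0.22 (adjusted p = 0.171) and Vgf by 0.14 ± 0.26 (adjusted p = 0.999).

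**Figure D1:**
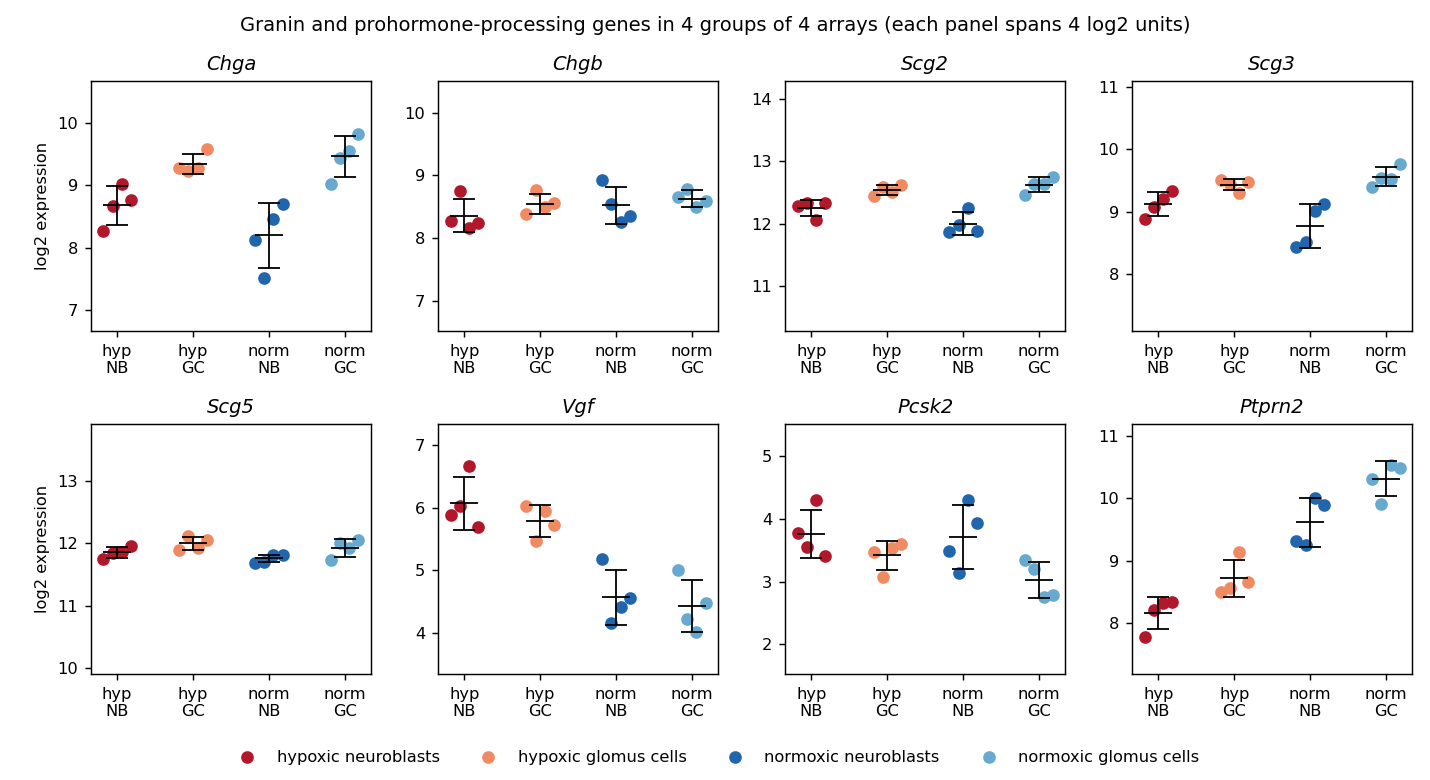
Deposited log2 level (vertical axis) of the 8 measured genes on each array, in hypoxic neuroblasts (hyp NB), hypoxic glomus cells (hyp GC), normoxic neuroblasts (norm NB) and normoxic glomus cells (norm GC), with the mean and SD of 4 arrays as bars. Chga, Scg2 and Scg3 are lowest in normoxic neuroblasts, with means of 8.20, 12.0 and 8.77, Vgf is high and Ptprn2 low in both hypoxic groups.

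After hypoxia the populations were compared in the same way. None of the 8 genes passed between hypoxic neuroblasts and hypoxic glomus cells by limma, and 2 had an unadjusted p under 0.05, where 0.283% of all probes passed. The groups nevertheless did not overlap for 3 genes, Chga, Scg2 and Ptprn2, each lower in all 4 neuroblast arrays, and over all probes they did not overlap in 4.48%, with neuroblasts lower in 2.21%. Chga was at 8.27, 8.67, 9.02 and 8.77 in hypoxic neuroblasts and at 9.28, 9.22, 9.28 and 9.58 in hypoxic glomus cells. Its difference was -0.66 ± 0.24 (95% interval -1.16 to -0.15, adjusted p = 0.33). Scg2 was at 12.28, 12.33, 12.06 and 12.33 in hypoxic neuroblasts and at 12.44, 12.58, 12.50 and 12.61 in hypoxic glomus cells, a difference of -0.28 ± 0.14 (adjusted p = 0.476). Scg3 differed by -0.31 ± 0.18 (adjusted p = 0.53), with overlapping groups. Without hypoxic neuroblast replicate 1 the difference of Chga was -0.52 ± 0.25, that of Scg2 -0.29 ± 0.15 and that of Scg3 -0.23 ± 0.18, and again none of the 8 genes passed.

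Whether these population differences changed with oxygen was tested by the interaction, which subtracts the glomus cell difference with hypoxia from that of neuroblasts. None of the 8 genes passed by limma, none had an unadjusted p under 0.05, and 0.0789% of all probes passed. The estimates were 0.60 ± 0.34 for Chga (95% interval -0.12 to 1.32, adjusted p = 0.803) and 0.48 ± 0.25 for Scg3 (95% interval -0.04 to 1.00, adjusted p = 0.769). That of Scg2 was 0.34 ± 0.20. The 3 genes that passed in normoxia are therefore not shown to differ in hypoxia by another amount, and the intervals do not show that the amounts are alike.

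**Figure D2:**
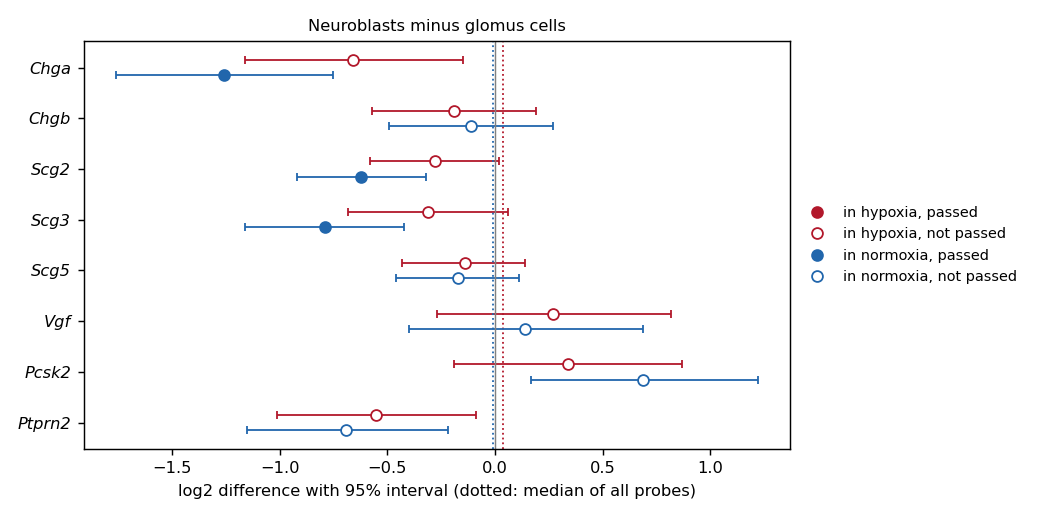
Difference of neuroblasts minus glomus cells (horizontal axis, log2, with 95% interval) for each gene in hypoxia and in normoxia, with filled points where it passed and the median of all probes as dotted lines. Chga, Scg2 and Scg3 are the filled points, at -1.26, -0.62 and -0.79 in normoxia, and the hypoxic points of the same genes lie at -0.66, -0.28 and -0.31.

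Markers of other cells moved with the population contrast and are given beside it. The mean level of 13 macrophage markers lay between 3.94 and 4.51 on normoxic neuroblast arrays and between 4.79 and 6.47 on normoxic glomus cell arrays, and 6 of the 13 were lower in neuroblasts. In hypoxia it lay between 4.41 and 4.95 in neuroblasts and between 5.80 and 6.42 in glomus cells, with 7 of 13 lower in neuroblasts. The mean level of 9 endothelial markers lay between 4.08 and 4.58 on normoxic neuroblast arrays and between 4.94 and 6.43 on normoxic glomus cell arrays, and between 5.0 and 5.27 in hypoxic neuroblasts and 5.68 and 6.54 in hypoxic glomus cells. Of these markers 1, the tight junction gene Cldn5, named after its values were seen, was lower in neuroblasts in each oxygen condition, while 8 had an unadjusted p under 0.05 in normoxia and 4 in hypoxia, and the list median was -0.96 in normoxia and -0.30 in hypoxia. Of 10 glomus cell markers 5 were lower in normoxic neuroblasts, with mean levels of 9.62 to 10.18 in neuroblasts and 10.89 to 11.08 in glomus cells. Over all probes 0.828% were lower in neuroblasts in normoxia and 0.145% in hypoxia. The lowest value of any probe on this scale was 0.87, so a marker level above 0 does not show that a cell type was present. The part of these cells in the granin differences was not tested, and in sorted bulk samples fewer cells of a type and less RNA per cell cannot be told apart.

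The hypoxia comparisons ask what 3 days of low oxygen do to the same genes in each population. Vgf was higher and Ptprn2 lower in both hypoxic populations, and the other 6 genes passed in neither. Thus 2 of 8 (25%) passed in neuroblasts, where 32.1% of all probes passed, and 2 of 8 (25%) in glomus cells, where 18.9% of all probes passed, so the share that passed is close to that of all probes and is no result particular to these genes. The hypoxic and normoxic arrays did not overlap for the same 2 genes, and over all probes they did not overlap in 28% in neuroblasts and in 26.4% in glomus cells. The median of all probes was itself higher in hypoxia, by 0.25 in neuroblasts and 0.17 in glomus cells, and for Vgf and Ptprn2 differences less that shift are also given. Differences of all other genes with hypoxia still include the shift.

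Vgf encodes a granin-like precursor of several secreted peptides (probe 17672779, gene at chr12:25274004-25281803). In neuroblasts it was at 5.88, 6.03, 6.66 and 5.69 in hypoxia and at 5.18, 4.15, 4.41 and 4.55 in normoxia. All 4 hypoxic arrays lay above all 4 normoxic arrays. The difference was 1.49 ± 0.26, a 2.81-fold higher level (95% interval 0.95 to 2.04, adjusted p = 0.000363), or 1.24 less the shift of all probes. Without hypoxic neuroblast replicate 1 it was 1.55 ± 0.28 (adjusted p = 0.00062). In glomus cells Vgf was at 6.02, 5.47, 5.94 and 5.73 in hypoxia and at 5.0, 4.22, 4.02 and 4.47 in normoxia, again without overlap. That difference was 1.36 ± 0.26, a 2.57-fold higher level (95% interval 0.82 to 1.91, adjusted p = 0.00133), or 1.19 less the shift. Vgf lay below the array median on 3 of 16 arrays. Its window, printed above, is the one among the 8 that holds both the full cAMP response element and ACGTG. Whether either motif has a part in the difference of Vgf with hypoxia was not tested.

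Ptprn2 encodes phogrin, a transmembrane protein of dense-core granules from the tyrosine phosphatase family (probe 17819449, gene at chr6:143582568-144334573). In neuroblasts it was at 7.78, 8.22, 8.33 and 8.34 in hypoxia and at 9.32, 9.26, 10.01 and 9.90 in normoxia. Every hypoxic array lay below every normoxic array. The difference was -1.45 ± 0.22, a 2.74-fold lower level (95% interval -1.92 to -0.99, adjusted p = 9.87e-05), or -1.70 less the shift of all probes. Without hypoxic neuroblast replicate 1 it was -1.33 ± 0.22 (adjusted p = 0.000315). In glomus cells Ptprn2 was at 8.50, 8.56, 9.15 and 8.67 in hypoxia and at 10.31, 9.91, 10.53 and 10.48 in normoxia, and the groups were apart by more than the range of either. That difference was -1.59 ± 0.22, a 3.01-fold lower level (95% interval -2.05 to -1.13, adjusted p = 1e-04), or -1.76 less the shift. The calls of Vgf and Ptprn2 in both populations held in all 25 alternative settings.

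**Figure D3:**
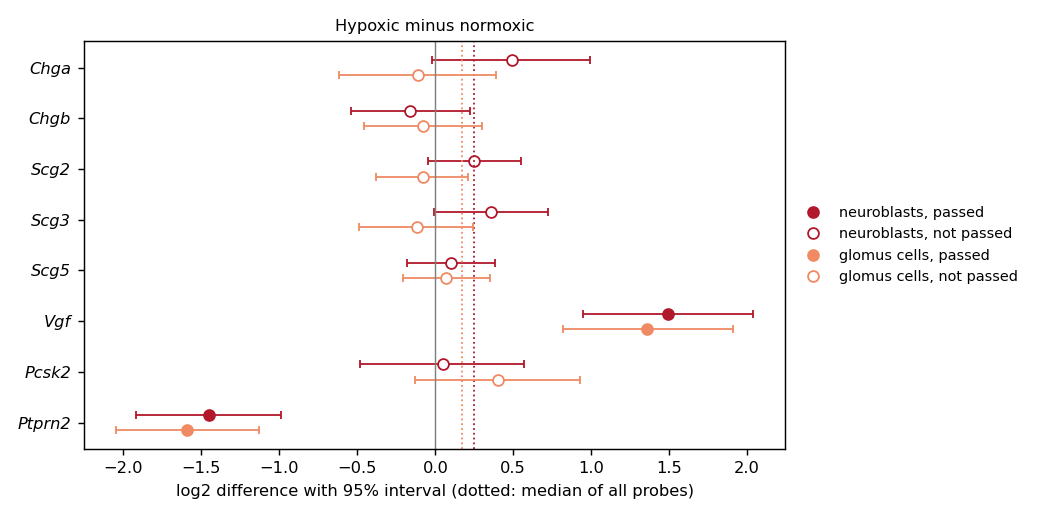
Difference of hypoxic minus normoxic arrays (horizontal axis, log2, with 95% interval) for each gene in neuroblasts and in glomus cells, with filled points where it passed and the median of all probes, 0.25 and 0.17, as dotted lines. Vgf lies at 1.49 and 1.36 and Ptprn2 at -1.45 and -1.59, and the intervals of the other 6 genes include 0.

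The size of either difference was not shown to depend on the population. The interaction of Vgf was 0.13 ± 0.37 (95% interval -0.64 to 0.90, adjusted p = 0.967) and that of Ptprn2 was 0.13 ± 0.31 (95% interval -0.52 to 0.79, adjusted p = 0.959). The intervals do not show that the populations responded alike.

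The 4 granins other than Vgf did not pass with hypoxia. In neuroblasts the difference of Chga was 0.49 ± 0.24 (95% interval -0.02 to 0.99, adjusted p = 0.124), that of Scg3 0.36 ± 0.18 (-0.01 to 0.72, adjusted p = 0.123) and that of Scg2 0.25 ± 0.14 (-0.05 to 0.55, adjusted p = 0.17). Chgb differed by -0.16 ± 0.18 there (adjusted p = 0.479). In glomus cells Chga differed by -0.11 ± 0.24 (95% interval -0.62 to 0.39), Chgb by -0.08 ± 0.18 (-0.46 to 0.30), Scg2 by -0.08 ± 0.14 (-0.38 to 0.21) and Scg3 by -0.12 ± 0.18 (-0.49 to 0.24). Their adjusted p-values in glomus cells lay between 0.65 and 0.777. Chgb was at 8.28, 8.75, 8.16 and 8.24 in hypoxic neuroblasts and at 8.38, 8.77, 8.49 and 8.56 in hypoxic glomus cells, within the range it had in normoxia but for 2 neuroblast arrays and 1 glomus cell array that were lower. Scg3 was at 8.88, 9.08, 9.20 and 9.33 in hypoxic neuroblasts and at 9.50, 9.45, 9.30 and 9.48 in hypoxic glomus cells. The scaling of the arrays decided the call for Chga and Scg3, which passed as higher in hypoxic neuroblasts after quantile normalization (0.70, adjusted p = 0.0219, and 0.49, adjusted p = 0.0202), while the deposited values and array centring gave none.

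The convertase and its chaperone did not pass with hypoxia either. Scg5 (probe 17775486, gene at chr3:120998420-121042881) was at 11.75, 11.84, 11.87 and 11.96 in hypoxic neuroblasts and at 11.69, 11.71, 11.81 and 11.81 in normoxic neuroblasts, a difference of 0.10 ± 0.13 (adjusted p = 0.565). In glomus cells it was at 11.89, 12.12, 11.92 and 12.06 in hypoxia and at 11.73, 12.00, 11.93 and 12.05 in normoxia, a difference of 0.07 ± 0.13. Its 4 group means spanned 0.24, the narrowest span of the 8 genes. Pcsk2 (probe 17766779, gene at chr3:151333938-151636628) was at 3.77, 3.56, 4.30 and 3.41 in hypoxic neuroblasts, a difference of 0.05 ± 0.25 from normoxia (adjusted p = 0.888). In hypoxic glomus cells it was at 3.47, 3.08, 3.53 and 3.60, and its difference from normoxia was 0.40 ± 0.25 (95% interval -0.13 to 0.93, adjusted p = 0.286). Chgb (probe 17766515, at chr3:140496712-140510057), Scg5 and Pcsk2 all lie on chromosome 3.

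Ranked by group mean, the genes fell into several orders over the 4 groups. Chga, Scg2 and Scg3 were lowest in normoxic neuroblasts, followed upwards by hypoxic neuroblasts, hypoxic glomus cells and normoxic glomus cells (9.46 ± 0.33, 12.62 ± 0.12 and 9.56 ± 0.15). For Chga and Scg2 the step between the 2 populations was the one without overlap, and neighbours of the same population overlapped, while every neighbouring pair of Scg3 overlapped. Ptprn2 was lowest in hypoxic neuroblasts (8.17 ± 0.26), followed upwards by hypoxic glomus cells (8.72 ± 0.30), normoxic neuroblasts (9.62 ± 0.39) and normoxic glomus cells (10.31 ± 0.28), and its 2 normoxic groups overlapped whereas the other neighbours did not. The span of its group means, 2.14, was the widest of the 8 genes. Vgf was highest in hypoxic neuroblasts (6.07 ± 0.42), followed downwards by hypoxic glomus cells (5.79 ± 0.25), normoxic neuroblasts (4.57 ± 0.44) and normoxic glomus cells (4.43 ± 0.42), with overlap within each oxygen condition and none between them. Neighbouring groups of Chgb, Scg5 and Pcsk2 overlapped throughout.

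For the 3 genes whose group means spanned at least 1 log2 unit, the closest profiles among the other 18158 genes were sought, by the root mean square difference of gene-centred values over the 16 arrays. Closest to Ptprn2 were Ppp5c, a protein phosphatase gene (0.17), and Specc1l (0.19), to Chga Cd164 and Shisa3 (0.26 each), and to Vgf Pam16 (0.31) and Cdc45 (0.32). Ppp5c had group means of 7.76 in hypoxic neuroblasts, 8.46 in hypoxic glomus cells, 9.33 in normoxic neuroblasts and 9.79 in normoxic glomus cells, the same order of groups as Ptprn2. These measures are descriptions over arrays of the same 4 groups.

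The other genes of the pathway were taken from lists chosen with earlier results of these data known. Counts over these lists are therefore not independent evidence. Of 18 other convertases, carboxypeptidases and finishing enzymes 17 were measured. In hypoxic neuroblasts 4 of the 17 (23.5%) were lower than in normoxic neuroblasts and 1 higher, where 13.7% of all probes were lower and 18.4% higher. With the dimmest 50% of probes left out, 4224 of 15213 were lower in hypoxic neuroblasts, a larger share than that of all probes. Mbtps1, the gene of a Golgi protease, was at 6.82 ± 0.40 in hypoxia and 8.53 ± 0.09 in normoxia (difference -1.71 ± 0.26, adjusted p = 9.49e-05). Pcsk7, a convertase of the trans-Golgi network, differed by -1.05 ± 0.22 and Furin, the convertase of the constitutive pathway, by -0.92 ± 0.22. The 1 higher gene, the carboxypeptidase gene Cpz (0.55 ± 0.16), did not pass after centring or quantile normalization. In hypoxic glomus cells 6 of 17 (35.3%) were lower and none higher, where 9.5% of all probes were lower and 9.37% higher. Without the dimmest 50% of probes, 3122 of 15213 were lower in hypoxic glomus cells. Mbtps1 differed there by -1.60 ± 0.26 and Pcsk6, a convertase of secreted growth factors, by -1.31 ± 0.26 (adjusted p = 0.002). Pcsk7 was at 5.69 ± 0.40 in hypoxia and 6.91 ± 0.30 in normoxia, and Furin at 8.12 ± 0.07 in hypoxia and 9.18 ± 0.08 in normoxia. The median of the list was -0.15 in neuroblasts and -0.13 in glomus cells, against 0.25 and 0.17 over all probes.

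Between the populations in normoxia 2 of the 17 (11.8%) were lower in neuroblasts and none higher, against 0.828% and 0.996% of all probes. Pcsk6 was at 5.97 ± 0.56 in normoxic neuroblasts and 8.47 ± 0.13 in normoxic glomus cells, a difference of -2.50 ± 0.26 (adjusted p = 3.03e-05). Cpxm2, which encodes a carboxypeptidase-like protein, differed by -1.63 ± 0.30 (adjusted p = 0.00596). In hypoxia none of the 17 passed between the populations by limma and 2 had an unadjusted p under 0.05. A pair of relatives of the listed genes was singled out after their values were seen. Ptprn, which encodes the closest relative of phogrin, averaged 8.10 ± 0.44 in hypoxic and 8.31 ± 0.37 in normoxic neuroblasts, a difference of -0.21 ± 0.24 (95% interval -0.72 to 0.29, adjusted p = 0.487). In glomus cells it differed by -0.18 ± 0.24 with hypoxia (95% interval -0.69 to 0.32, adjusted p = 0.623). Pcsk1n, which encodes the granin-like inhibitor proSAAS, was at 9.45 ± 0.47 in normoxic neuroblasts and 10.21 ± 0.09 in normoxic glomus cells, without overlap, a difference of -0.76 ± 0.26 (adjusted p = 0.235).

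**Figure D4:**
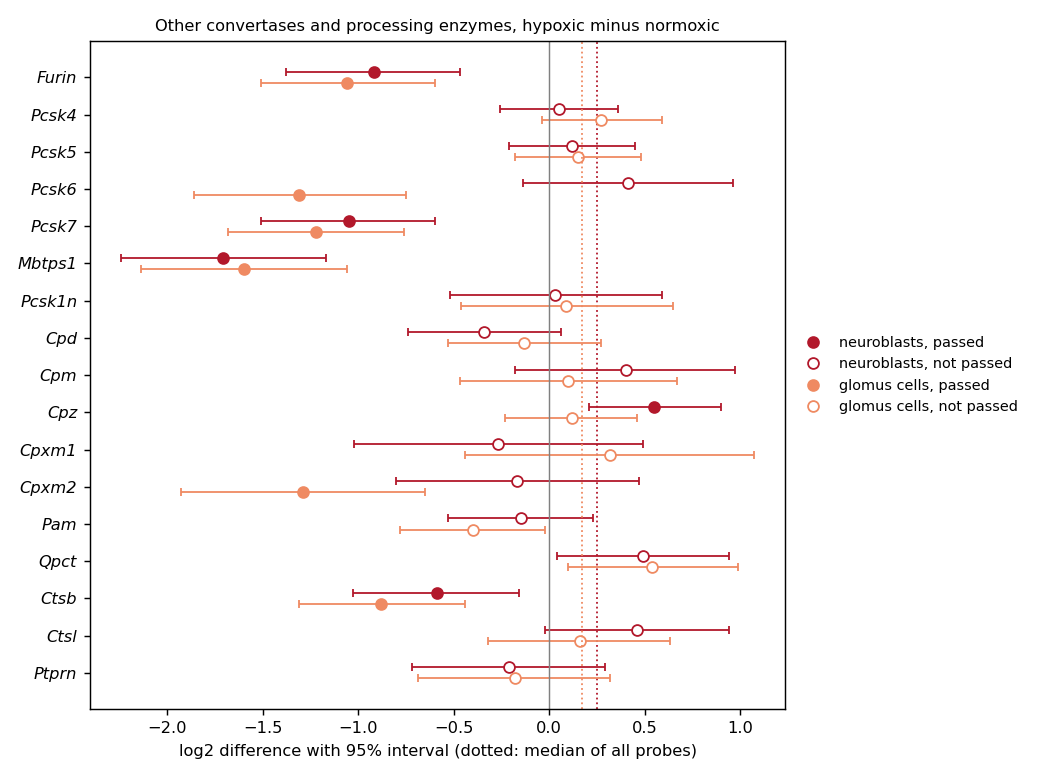
Difference of hypoxic minus normoxic arrays (horizontal axis, log2, with 95% interval) for the 17 measured convertases, carboxypeptidases and finishing enzymes in neuroblasts and in glomus cells, with filled points where it passed and the medians of all probes as dotted lines. Mbtps1, Pcsk7 and Furin lie left of 0 in both populations, and Ptprn, the relative of Ptprn2, at -0.21 and -0.18.

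Of 32 genes of dense-core granule formation, maturation and content 29 were measured, all but Ccdc186, Baiap3 and Vps51. In hypoxic neuroblasts 15 of 29 (51.7%) were lower and 3 (10.3%) higher, and in hypoxic glomus cells 9 (31%) were lower and 2 (6.9%) higher. Over all probes 13.7% were lower and 18.4% higher in neuroblasts, and 9.5% lower and 9.37% higher in glomus cells. All probes include many dim ones, whereas the 29 genes averaged above the array medians. With the dimmest 50% of probes left out, 4224 of 15213 were lower and 3156 higher in neuroblasts. In glomus cells 3122 of these were lower and 2342 higher. Lower calls are thus a larger share of the brighter probes than of all probes. The list median was -0.60 in neuroblasts and -0.28 in glomus cells. Vps52, a tethering subunit gene for vesicles that return to the Golgi, was at 5.53 ± 0.39 in hypoxic and 8.08 ± 0.14 in normoxic neuroblasts (difference -2.55 ± 0.25, adjusted p = 2.24e-06), and differed by -1.81 ± 0.25 in glomus cells. Cyb561, the electron carrier of the granule membrane, differed by -1.81 ± 0.23 in neuroblasts and -2.03 ± 0.23 in glomus cells, and Atp6ap1, an accessory subunit of the proton pump, by -2.07 ± 0.26 in neuroblasts and -1.65 ± 0.26 in glomus cells. Sytl4, which encodes the Rab effector granuphilin, was at 5.01 ± 0.36 in hypoxic and 7.65 ± 0.35 in normoxic neuroblasts. Stx6, a Golgi membrane fusion gene, differed by -1.32 ± 0.25 in glomus cells. The mean level of the 29 genes lay between 6.44 and 7.08 on hypoxic neuroblast arrays, against 7.19 to 7.59 in normoxic neuroblasts, and between 6.89 and 7.01 in hypoxic glomus cells, against 7.34 to 7.49 in normoxic glomus cells. Without hypoxic neuroblast replicate 1, which was the lowest of its group, 12 of the 29 were lower and 4 higher in hypoxic neuroblasts, and after centring 16 were lower and 2 higher.

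Between the normoxic populations 3 of the 29 granule genes (10.3%) passed, against 1.82% of all probes. Sv2c, a synaptic vesicle glycoprotein gene, was at 8.06 ± 0.20 in normoxic neuroblasts and 4.74 ± 0.46 in normoxic glomus cells (difference 3.31 ± 0.39, adjusted p = 9.74e-05). Sytl4 was also higher in neuroblasts, by 1.98 ± 0.30. Slc18a1, the vesicular monoamine transporter gene of endocrine cells, was lower, at 9.70 ± 0.22 in normoxic neuroblasts and 11.72 ± 0.14 in normoxic glomus cells (difference -2.02 ± 0.29, adjusted p = 0.000478). In hypoxia none of the 29 passed between the populations by limma, and 6 had an unadjusted p under 0.05.

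Possible cargo of the pathway was followed with 36 peptide precursors, of which 33 were measured. Whether the enzymes above cut them was not tested. In hypoxic neuroblasts 10 of 33 (30.3%) were higher and 1 (3.03%) lower, where 18.4% of all probes were higher and 13.7% lower. The list median was 0.34, against 0.25 over all probes. The mean level of the 33 genes lay between 5.22 and 5.37 on hypoxic and between 4.72 and 4.84 on normoxic neuroblast arrays. Normoxic neuroblast arrays had medians of 4.40 to 4.61, so the list averaged close to the array median. The count does not show 10 well-expressed precursors. Npy, the neuropeptide Y precursor gene, was at 9.97 ± 0.24 in hypoxic and 7.30 ± 0.26 in normoxic neuroblasts (difference 2.68 ± 0.20, adjusted p = 2.89e-07). Tac3, the neurokinin B precursor gene, differed by 3.88 ± 0.36, Cartpt, the precursor gene of the CART peptides, by 1.42 ± 0.32 and Adm, the adrenomedullin gene, by -1.71 ± 0.27. In hypoxic glomus cells 2 of 33 (6.06%) were higher and 1 (3.03%) lower, both shares below those of all probes (9.37% and 9.5%), Npy differing by 2.34 ± 0.20, Tac3 by 2.77 ± 0.36 and Adm by -1.46 ± 0.27. The counts depended on the setting, with 3 higher and 1 lower in neuroblasts after array centring, and 11 higher and 1 lower in glomus cells with array weights. Between the populations, Prlh, the prolactin-releasing peptide gene, was higher in neuroblasts in hypoxia (2.67 ± 0.40, adjusted p = 0.00512) and in normoxia (3.58 ± 0.40, adjusted p = 5.55e-05), and Tac3 was lower in normoxic neuroblasts (-2.75 ± 0.36, adjusted p = 0.000263).

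Transcription regulators tied to the neuroendocrine secretory phenotype were listed as 17 genes, of which 15 were measured. In hypoxic neuroblasts 3 (20%) were lower and 2 (13.3%) higher, against 13.7% and 18.4% of all probes, and in hypoxic glomus cells 3 (20%) were lower and 1 (6.67%) higher, against 9.5% and 9.37%. With 15 genes these counts are near those of all probes. Isl1, a homeobox gene of neurons and endocrine cells, was at 7.63 ± 0.45 in hypoxic and 9.94 ± 0.31 in normoxic neuroblasts (difference -2.31 ± 0.27, adjusted p = 1.01e-05), and differed by -1.43 ± 0.27 in glomus cells. Myt1, a zinc finger gene of neural and endocrine cells, differed by -2.35 ± 0.24 in neuroblasts and -1.10 ± 0.24 in glomus cells, and its relative Myt1l by -1.05 ± 0.22 in neuroblasts. Crem, whose product binds the cAMP response element, was higher in hypoxia, by 0.71 ± 0.18 in neuroblasts and 0.88 ± 0.18 in glomus cells, and the neuroblast call was lost after centring (0.42, adjusted p = 0.166). Gata3 was lower in normoxic neuroblasts (-1.01 ± 0.24, adjusted p = 0.0341) and in hypoxic glomus cells (-0.72 ± 0.24, adjusted p = 0.0459), calls lost in 8 and in 11 of 24 alternative settings. In hypoxia none of the 15 passed between the populations by limma and 2 had an unadjusted p under 0.05.

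No gene of these 4 lists passed the interaction. At an unadjusted p under 0.05 there were 2 of 17 processing enzymes, 5 of 29 granule genes, 1 of 33 precursors and 4 of 15 regulators. The share of all probes at that unadjusted p was not counted, so these counts have no baseline.

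**Figure D5:**
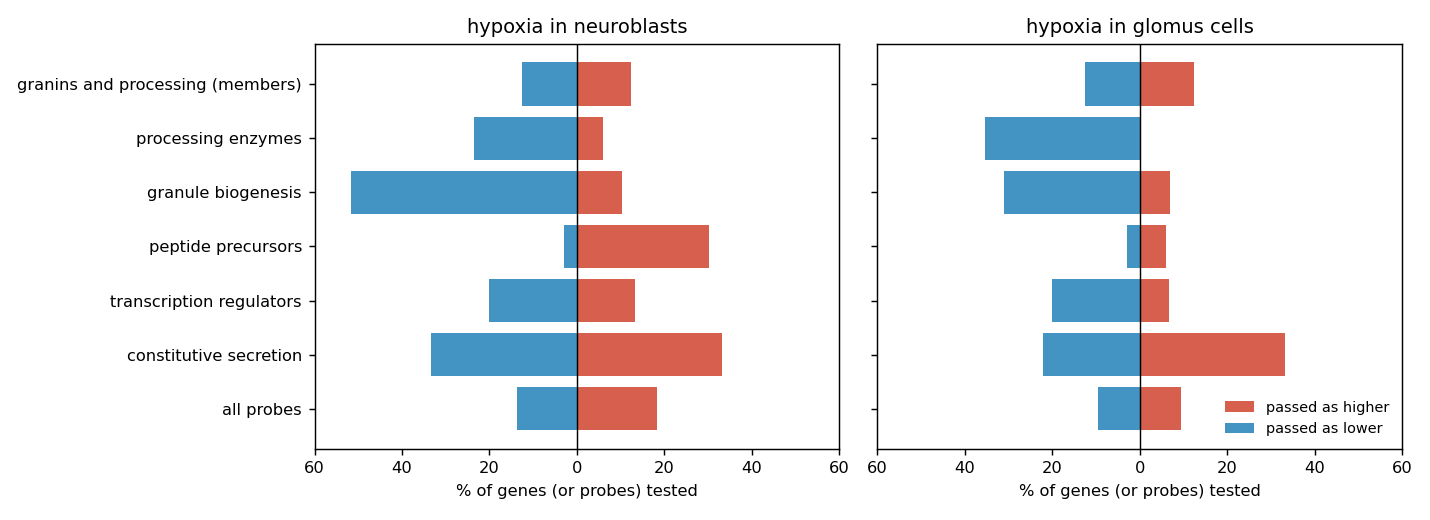
Share of measured genes that passed as lower (left) or higher (right) with hypoxia, in percent (horizontal axis), for the 8 granin and processing genes, each pathway list and all probes, in neuroblasts and in glomus cells. Of the granule genes 51.7% passed as lower in neuroblasts and 31% in glomus cells, against 13.7% and 9.5% of all probes. All probes include many dim ones. With the dimmest 50% left out, 4224 of 15213 probes passed as lower in neuroblasts and 3122 in glomus cells, larger shares than those drawn.

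With hypoxia, the levels of other cells' markers moved as well. In neuroblasts none of 13 macrophage markers passed by limma, with 1 at an unadjusted p under 0.05, and in glomus cells 4 were higher in hypoxia. Of 10 immature neuron markers 8 were lower in hypoxic neuroblasts, where their mean level lay between 6.28 and 6.48, against 7.11 to 7.56 in normoxic neuroblasts. Of 10 glomus cell markers 5 were lower and 1 higher in hypoxic glomus cells, the lower ones including Epas1, the gene of hypoxia-inducible factor 2 alpha, at 11.17 ± 0.18 in hypoxia and 12.74 ± 0.05 in normoxia. In hypoxic neuroblasts 4 of the 10 were lower and 3 higher. The shares of all probes were 13.7% lower and 18.4% higher in neuroblasts and 9.5% lower and 9.37% higher in glomus cells. The part of such cells in the differences of Vgf, Ptprn2 and the lists was not tested.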

How the data were processed

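The members and gene lists were chosen with earlier results of these data known, so no count over them is independent evidence. The deposited table holds 1 value per probe and array; the authors' values were taken as log2 levels, as their span (0.87 to 13.33) and the tool in the submitters' processing notes, Transcriptome Analysis Console, point to. The sources used here do not give its version, background correction or normalization. Depth has no counterpart on arrays, whose number limits the precision. No probe was filtered out and no further normalization was applied.

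A linear model with 4 group means was fitted to all 30429 probes of the 16 arrays with limma 3.58.1 (R 4.3.3, lmFit and eBayes without trend), which left 12 residual degrees of freedom. The contrasts were 5, neuroblasts minus glomus cells in hypoxia and in normoxia, hypoxic minus normoxic arrays in neuroblasts and in glomus cells, and the interaction. All p-values are two-sided and were adjusted (Benjamini-Hochberg) over the whole table for each contrast, with 0.05 as the threshold. Group values are means ± SD, differences are ± SE, and intervals are at 95%. The model was also run on simulated data with independent normal noise and a known step in some probes of hypoxic glomus cells. That simulation held neither the narrower spread of hypoxic arrays nor a shift of all probes, so it does not cover them. Motifs and figures were made with Python 3.11.15 and matplotlib 3.10.9.

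Probe names came from the platform annotation, gene positions and promoters from RefSeq on GRCr8. The text names all members, up to 4 genes with the smallest p among those that passed in each pathway list and comparison, the 2 closest profiles of members spanning at least 1 log2 unit, and Th, Epas1 and B3gat1. Pathway lists were other processing enzymes, granule biogenesis, peptide precursors, transcription regulators and the constitutive secretory pathway, and cell markers formed 9 more lists. Alternatives were array centring, quantile normalization, leaving out the dimmest 25% or 50% of probes, a variance trend, array weights, only the groups compared, a replicate block, averaged probes, a stricter adjusted p of 0.01, a fold threshold of 2, and leaving out each array.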

Additional observations from a re-analysis of the deposited data

Results flagged for a closer look

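Chga in hypoxic glomus cell replicate 4 was at 9.58, while the other 3 arrays of that group lay between 9.22 and 9.28. The gap made up 0.833 of the range of the group, above Dixon's critical value at the 95% level for 4 samples. It was the 1 array marked among 32 groups of 4 examined, where chance marks about 1 group in 20. All 4 hypoxic neuroblast arrays, between 8.27 and 9.02, lay below all arrays of that group with or without it.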

How the results depend on the processing

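Of 987 values that the 40 differences of the 8 genes took under the alternatives, 947 kept their direction and side of the threshold, 16 lost a call, 2 gained one and 22 changed sign, all 22 being differences that had not passed. The count of genes past the threshold between the normoxic populations was 3 and became 1 at an adjusted p under 0.01, with a fold of at least 2, after array centring and when only the groups compared were fitted, and it lay between 1 and 3 when single arrays were left out. After quantile normalization it was 2, with Scg2 at -0.48 (adjusted p = 0.0846). The count for hypoxia in neuroblasts, 2, became 4 after quantile normalization. The stricter adjusted p and the fold are narrower by construction, and otherwise the cause was not tested. Pcsk2 was not among the probes left when the dimmer 50% were removed.

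Changes of sign after centring were Scg5 at -0.15, in hypoxic glomus cells, Scg2 at -0.03, Scg5 at -0.18 and Pcsk2 at -0.23 in hypoxic neuroblasts, and the interaction of Scg5 at -0.04. After quantile normalization they were Chgb at 0.03 and Scg5 at -0.04 in hypoxic glomus cells, Chgb at 0.05 and Pcsk2 at -0.31 in hypoxic neuroblasts, the interaction of Chgb at 0.02, and Ptprn at 0.04 in hypoxic neuroblasts. With single arrays left out, Vgf between the normoxic populations ranged from -0.06 to 0.34, Chga with hypoxia in glomus cells from -0.26 to 0.01, and Pcsk2 with hypoxia in neuroblasts from -0.15 to 0.24. The interaction of Vgf ranged from -0.07 to 0.33, that of Scg5 from -0.01 to 0.10 and that of Chgb from -0.21 to 0.06.

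The labels state no pairing of the samples. Residuals of equally numbered arrays correlated between -0.10 and 0.20 over all probes, and at most 2 of the 4 pairs of a comparison passed 0.1. Those of differently numbered arrays correlated between -0.25 and 0.26. With 4 equally numbered pairs per comparison, these ranges can neither show nor exclude a pairing by replicate number. With the replicate number as a block, the 8 genes gave 0 calls between the hypoxic populations, 3 between the normoxic ones, 2 for hypoxia in neuroblasts, 2 in glomus cells and 0 for the interaction, as without it. Over all probes, hypoxia gave 5596 higher and 4159 lower calls in neuroblasts (57.4% higher) and 2852 and 2892 in glomus cells (49.7%). After centring these were 1826 and 5464 (25%) and 1370 and 3783 (26.6%), and after quantile normalization 47% of neuroblast calls were higher. Between the hypoxic populations 86 probes passed, 48.8% of them higher, against 36.8% after centring, 28% of 25 calls with only the groups compared, and 60.5% without hypoxic neuroblast replicate 1. Of 1319 values of 55 differences of other named genes, 1284 kept their direction and side, 34 lost a call and 1 changed sign. The lost calls were those of Gata3, Sec61b, Cpz and Crem, that of Prlh between the hypoxic populations (adjusted p = 0.0606 with only the groups compared) and that of B3gat1, which was lost in 6 settings, among them without normoxic neuroblast replicate 3 or 4 or normoxic glomus cell replicate 3 or 4. These settings for lists and other named genes were chosen after seeing the data.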

Other observations

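The constitutive secretory pathway, which carries proteins to the surface without storage, was listed as 30 genes, of which 27 were measured, all but Srp54a, Copb2 and Tmed10. In hypoxic neuroblasts 9 of 27 (33.3%) were higher and 9 lower, where 18.4% of all probes were higher and 13.7% lower. In hypoxic glomus cells 9 (33.3%) were higher and 6 (22.2%) lower, against 9.37% and 9.5% of all probes. Without the dimmest 50% of probes, 4224 of 15213 were lower in neuroblasts and 3122 in glomus cells. Sec11c, a signal peptidase gene, was at 10.73 ± 0.09 in hypoxic and 8.74 ± 0.37 in normoxic neuroblasts (difference 1.99 ± 0.18, adjusted p = 9.28e-07), and differed by 1.28 ± 0.18 in glomus cells. Srp19, a signal recognition particle gene, differed by 1.98 ± 0.23 in neuroblasts and 1.75 ± 0.23 in glomus cells, Srp9 by 1.61 ± 0.22 and Sec61b by 1.43 ± 0.19 in neuroblasts. Among the lower genes in glomus cells were the vesicle coat genes Sec23a (-1.81 ± 0.33) and Copa (-1.40 ± 0.21). Centring gave 6 higher and 12 lower in neuroblasts and 4 higher and 8 lower in glomus cells, so the balance of directions in the list depended on the scaling. Between the populations Sec61b was lower in normoxic neuroblasts (-0.91 ± 0.19, adjusted p = 0.0167), a call lost without normoxic neuroblast replicate 1 or 2 or normoxic glomus cell replicate 3 or 4 (adjusted p 0.0567 to 0.0789). None of the 27 passed between the hypoxic populations or in the interaction by limma, and 3 had an unadjusted p under 0.05 in each.

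Markers of further cell types were followed in the same fit. Of 9 type II and glial cell markers 1 was higher in hypoxic neuroblasts than in hypoxic glomus cells and 2 in normoxic neuroblasts than in normoxic glomus cells, with mean levels of 6.06 to 6.61 and 5.65 to 6.05 in neuroblasts against 5.36 to 5.64 and 4.83 to 5.38 in glomus cells. Of 8 pericyte and smooth muscle markers 1 was higher in normoxic neuroblasts, and of 8 T and NK cell markers 1 was lower there. No fibroblast marker of 10 and neither of 2 measured erythroid markers passed between the populations. Over all probes 1.82% passed between the normoxic and 0.283% between the hypoxic populations.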
